A study of Mus musculus with 12 samples.

Results

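The interferon-gamma axis was followed through 9 genes: the ligand Ifng, its receptor chains Ifngr1 and Ifngr2, the receptor kinases Jak1 and Jak2, the transcription factors Stat2 and Stat3, and the feedback inhibitors Socs1 and Socs3. They were picked by symbol, with the names of GENCODE M21, and are 9 of the 52636 gene identifiers counted. Each symbol matched 1 identifier.

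Interferon-gamma is a cytokine made mainly by activated T cells and NK cells. It joins the Ifngr1 and Ifngr2 chains, which carry Jak1 and Jak2, and these kinases phosphorylate STAT proteins that move to the nucleus and switch on genes of antigen presentation, chemokines and cell-autonomous defence. SOCS proteins are themselves induced by the pathway and act back on the kinases or receptors. In the liver, Stat3 is best known as the effector of the interleukin-6 family in the acute-phase response.

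Bulk RNA was sequenced from 12 libraries in 4 groups of 3: tumor TDB, tumor vehicle, liver TDB and liver vehicle. All animals were wild-type female FVB/NJ mice carrying a piece of Fo5 tumor, grown from an MMTV-HER2 transgenic founder line, in the mammary fat pad; the HER2 transgene is therefore in the transplanted tumor cells and not in the host. TDB mice received 1 intravenous dose of 5 mg/kg of an anti-HER2/CD3 T cell dependent bispecific antibody, which links CD3 on T cells to HER2 on tumor cells; vehicle mice received the histidine, sucrose and Tween-20 buffer alone. Tumors averaged 350 to 500 mm3 when treatment was assigned, and dissociated tumor and liver were taken 24 h after dosing from 3 mice per treatment. The vehicle livers were thus livers of tumor-bearing mice, every tumor came from 1 transgenic founder, and only a single time was sampled.

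Total counts per library ran between 18460159 and 29396324. Levels below are depth-scaled counts (CPM), with TMM factors from edgeR over the 12 libraries. Those factors were 1.49 to 1.57 in tumors and 0.596 to 0.743 in livers, so a level set across tissues depends on the scaling, while a ratio of genes within a library does not. The summed CPM of 6 hepatocyte genes was 0.614 to 4.32 in TDB tumors and 0.0592 to 24.7 in vehicle tumors. It was 150600 to 191400 in TDB livers and 231100 to 275300 in vehicle livers, so the liver sums were separate and lower with TDB. Alb was the largest part of the liver sums, at means of 129100 CPM with TDB and 197000 CPM with vehicle. Apoa1, Ttr and Cyp2e1 were lower on average too, while Cps1 (3220 and 2806 CPM) and Hnf4a (1134 and 1014 CPM) were higher. None of the 6 had an edgeR adjusted p under 0.05 between the liver groups. The part of the shift in the sum in the liver comparisons of the members was not tested. Erbb2, Epcam, Krt8, Krt18, Csn3 and Wap together reached 15220 to 15800 CPM in TDB tumors and 13590 to 16140 CPM in vehicle tumors, against 318 to 829 CPM over the livers, where Wap was at 0. Csn3 was most of the tumor sums (means of 13820 CPM with TDB and 13260 CPM with vehicle), which hide moves of single genes. By an edgeR adjusted p under 0.05, 1 of the 6 was higher in TDB tumors, Wap, and 2 were lower. Erbb2 averaged 227 CPM with TDB and 359 CPM with vehicle, without overlap, and Krt8 102 CPM and 130 CPM. The library of liver TDB 3 stood apart: its deviation from the group mean had a Spearman correlation of 0.565 with exonic length across 16542 genes, against -0.522 in liver TDB 1 and -0.403 in liver TDB 2, and mitochondrial genes took 2.05% of its counts, against 0.847% and 0.914% in the other TDB livers. Liver results of the members are therefore given with and without it. Vehicle livers also differed in that correlation, at 0.111, -0.397 and 0.41 in liver vehicle 1, 2 and 3. Each deviation is taken from a mean of 3, so the values within a group are not independent. Results without liver TDB 3 thus still hold livers that differ in their dependence on length. The p-values measure the spread between these 3 mice a group.

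Promoter sequence is shown for 3 members: Ifng, the ligand, and Stat2 and Socs1, the 2 whose windows held ISRE-like letters (defined below). Each line is the 250 bases before the RefSeq start site on GRCm38.p6, written in the direction of the gene. Capitals mark matches, on either strand, to TTCNNNGAA (the form of a gamma-activated site, GAS-like) or GAAANNGAAA (the form of an interferon-stimulated response element, ISRE-like). The windows are chr16:10785537-10785786 (minus strand) for Socs1, chr10:128270248-128270497 (plus strand) for Stat2 and chr10:118440796-118441045 (plus strand) for Ifng.
Socs1: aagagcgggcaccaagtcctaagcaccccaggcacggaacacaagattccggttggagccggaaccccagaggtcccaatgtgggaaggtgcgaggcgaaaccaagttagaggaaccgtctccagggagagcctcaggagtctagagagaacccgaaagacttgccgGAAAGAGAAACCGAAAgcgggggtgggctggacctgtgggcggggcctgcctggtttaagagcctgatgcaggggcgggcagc
Stat2: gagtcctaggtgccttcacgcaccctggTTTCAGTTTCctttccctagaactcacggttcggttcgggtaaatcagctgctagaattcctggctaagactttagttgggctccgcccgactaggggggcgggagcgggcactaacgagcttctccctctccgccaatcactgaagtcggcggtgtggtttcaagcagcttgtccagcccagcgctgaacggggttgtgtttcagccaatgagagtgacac
Ifng: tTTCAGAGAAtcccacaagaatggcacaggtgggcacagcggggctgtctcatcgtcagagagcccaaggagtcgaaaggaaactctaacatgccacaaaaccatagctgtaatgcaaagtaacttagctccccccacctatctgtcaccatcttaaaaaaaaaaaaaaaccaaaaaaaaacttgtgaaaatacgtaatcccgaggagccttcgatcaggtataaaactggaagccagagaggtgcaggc

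The Socs1 window held 2 overlapping ISRE-like matches, GAAAGAGAAA beginning 83 bases and GAAACCGAAA beginning 77 bases before the start site. The Stat2 window held 1 such match, TTTCAGTTTC on the strand shown, 222 bases before the start. The Ifng window held a GAS-like match, TTCAGAGAA, 249 bases before the start, and the Socs3 window held another, TTCTTAGAA, 154 bases before its RefSeq start, which lies within the GENCODE span of the gene, so that this match is downstream of the GENCODE start. RefSeq windows were found for 9 of 9 members, and the other 5 had neither run of letters. Jak2 and Stat3, also called higher in TDB tumors, were among those without a match. Over 32851 RefSeq windows of the same length, 7.02% held the GAS-like letters and 2.98% the ISRE-like letters, so a match describes these windows and is not evidence of binding.

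The first comparison asked how the members differed between TDB and vehicle tumors. Of the 9 members, 6 were called higher by edgeR's quasi-likelihood test at an adjusted p under 0.05 (Ifng, Jak2, Stat2, Stat3, Socs1 and Socs3), against 28.8% of all 15454 genes tested in either direction and 15.8% called higher. The CPM ranges of 7 members lay wholly above vehicle, Jak1 added to those 6, against 17.7% of all genes. Both receptor chains overlapped. The split of all calls depends on scaling: 2437 genes were higher and 2019 lower, against 2075 and 2991 with upper quartile scaling, and 1856 and 3994 by library totals alone.

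The second comparison asked the same of the liver, where 8 members had enough counts to be tested. Only Socs1 was called, higher with TDB, against 0.535% of the 13657 genes tested in either direction and 0.513% called higher. The ranges of Stat2, Socs1 and Socs3 lay above vehicle, where 8.18% of genes did so, and that of Ifngr1 lay below, where 6.58% did so. Without liver TDB 3, Socs3 was called as well, so that 2 members were.

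**Figure D1:**
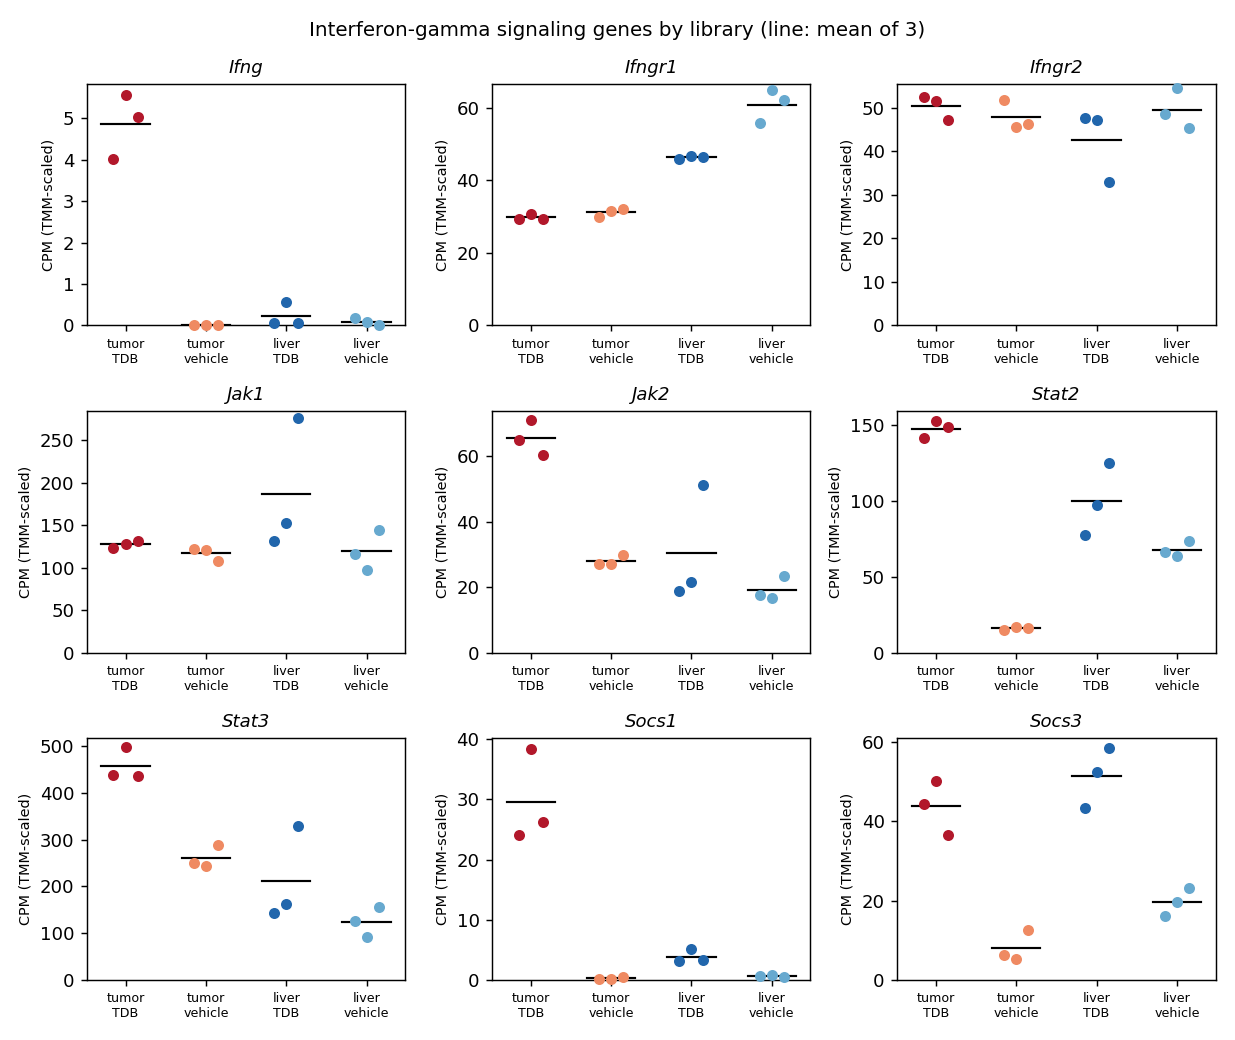
TMM-scaled CPM (linear axes from 0) of the 9 members in each library, by group, with a line at the mean of 3. Ifng, Stat2 and Socs1 were highest in the TDB tumors, Ifngr1 was lower in both tumor groups than in the livers on this scaling (higher by library totals), and liver TDB 3 was the highest liver for Jak1, Jak2, Stat2, Stat3 and Socs3.

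Ifng (ENSMUSG00000055170, chr10:118441046-118445892 in GRCm38) encodes interferon-gamma itself. The TDB tumors had 4.02, 5.56 and 5.04 CPM (135, 243 and 164 counts), and all 3 vehicle tumors had 0 counts. With 3 counts over the vehicle group as the floor, Ifng was 163-fold higher in TDB tumors (edgeR quasi-likelihood adjusted p = 1.31e-05). From the summed counts of 542 and 0, the exact 95% lower limit of the scaled ratio was 132, counting error only. The TDB livers had 1, 10 and 1 counts, against 2, 1 and 0 counts in vehicle livers, too few for the test across genes. The ratio of summed liver counts, scaled for depth, was 3.00, with an exact 95% interval of 0.810 to 16.6 that covers counting error only. Of the 12 Ifng counts in TDB livers, 10 came from liver TDB 2, so the other TDB livers sat within the range of vehicle livers.

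Ifng was 19.8 times higher in TDB tumors than in TDB livers by counts (exact 95% interval 11.2 to 38.6, counting error only), and edgeR's log2 difference was 4.29 (SE 0.60, adjusted p = 0.000106). It was 6.12 (adjusted p = 2.51e-05) without liver TDB 2, the library that held most of the liver counts. The difference between the TDB effects in tumor and liver was 8.40 on the log2 scale (SE 2.17) and did not pass (edgeR adjusted p = 0.0933). It passed in 5 of 20 alternatives, among them without liver TDB 2 (10.26, adjusted p = 0.0167) and by DESeq2 (adjusted p = 5.51e-05). Over the 20 alternatives it ran from 0.969 to 10.26. Both the difference between TDB tissues and that between the effects rest on groups with 0 to 12 counts. In bulk RNA, fewer cells of a type and less RNA per cell cannot be told apart.

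The T cell genes Cd3d, Cd3e, Cd3g and Trac, which encode parts of the T cell receptor complex, did not follow the same order. Cd247, a further gene of the complex, was left out of the sums below. It averaged 1.13 CPM in TDB tumors and 1.60 CPM in vehicle tumors, and 2.54 and 1.29 CPM in TDB and vehicle livers. The sizes of these sums, and of ratios to them, depend on the genes chosen. Summed counts of Cd3d, Cd3e, Cd3g and Trac were 203, 251 and 99 in TDB tumors and 11, 10 and 4 in vehicle tumors. They were 289, 297 and 266 in TDB livers and 115, 100 and 120 in vehicle livers. On TMM-scaled CPM the sums were 3.04 to 6.05 in TDB tumors and 0.118 to 0.338 in vehicle tumors, against 16.9 to 18.9 in TDB livers and 8.59 to 9.97 in vehicle livers. Every TDB liver was above every TDB tumor by counts and by CPM, while vehicle livers overlapped TDB tumors by counts and lay above them by CPM.

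For each 100 counts of those T cell genes, a ratio that no scaling changes, there were 66.5, 96.8 and 166 Ifng counts in TDB tumors and 0 in vehicle tumors, against 0.346, 3.37 and 0.376 in TDB livers and 1.74, 1.00 and 0 in vehicle livers. Every TDB tumor was above every other library. The ratio was highest in tumor TDB 3, where its divisor, the T cell sum, was the lowest of the TDB tumors. Ifng there (5.04 CPM) lay between those of the other TDB tumors (4.02 and 5.56 CPM). NK cell genes (Ncr1, Klrb1c, Klra8 and Klre1) summed to 2.30 to 4.02 CPM in TDB tumors and 0.0922 to 0.152 CPM in vehicle tumors, against 1.502 to 3.08 CPM in TDB livers and 1.62 to 2.92 CPM in vehicle livers; Klra8 was at 0 in vehicle tumors and vehicle livers. The part of NK cells in the Ifng difference was not tested.

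**Figure D2:**
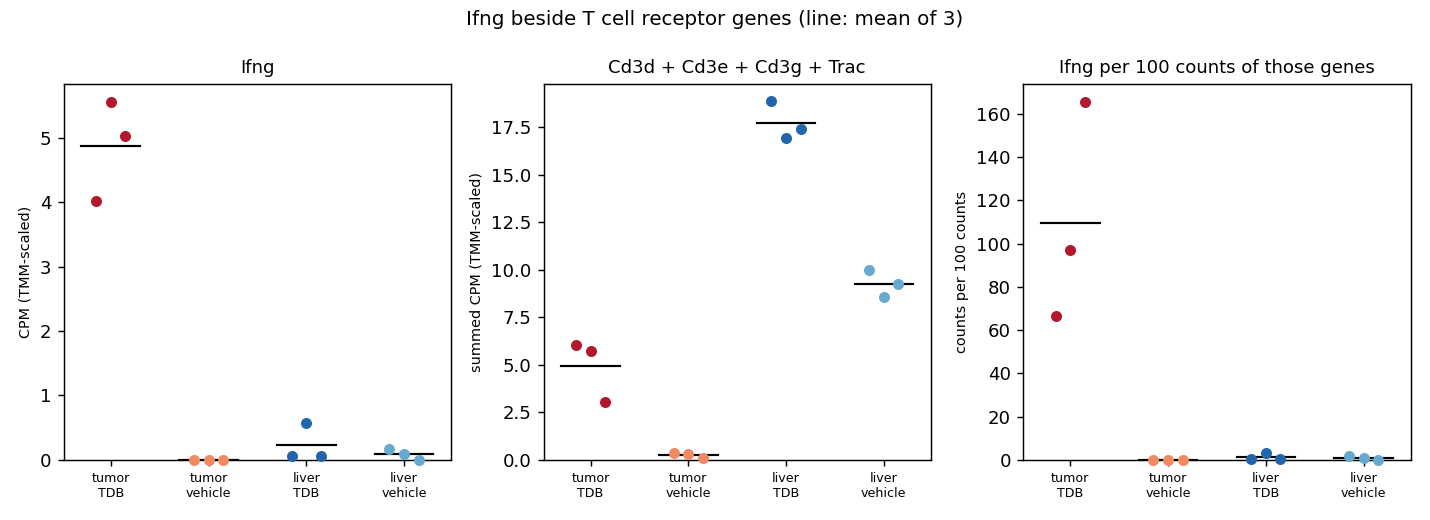
Ifng CPM, the summed CPM of Cd3d, Cd3e, Cd3g and Trac, and Ifng counts per 100 counts of those 4 genes, in each library by group with a line at the mean of 3. TDB livers had the highest T cell sums (16.9 to 18.9 CPM), while Ifng per 100 T cell gene counts was 66.5 to 166 in TDB tumors and at most 3.37 elsewhere.

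The genes that help make Ifng were read from a list of 12, among them Tbx21 and Stat4, the transcription factors of type 1 T cells, and receptors for interleukin-2, interleukin-12 and interleukin-18. In tumors, 9 of 11 tested genes were called higher with TDB, against 15.8% of all genes. The median log2 difference was 3.46, against -0.02 over all genes. Il2ra, the interleukin-2 receptor alpha chain, had 773 counts in TDB tumors and 2 in vehicle tumors, a scaled ratio of 349 (exact 95% interval 96.4 to 2890; edgeR adjusted p = 3.41e-06). Tbx21 had 199 counts in TDB tumors and 1 in vehicle tumors, a ratio of 179.9 (31.9 to 7141; edgeR adjusted p = 2.10e-05). In liver, 1 of 6 tested was called: Il2rg, the common gamma chain, averaged 14.3 CPM in TDB livers and 3.79 CPM in vehicle livers (log2 1.96, SE 0.29, edgeR adjusted p = 0.0421). In tumors Il2rg averaged 12.2 CPM with TDB and 1.54 CPM with vehicle (log2 3.07, SE 0.18, adjusted p = 4.42e-06). Most T cell markers moved with this list, with 6 of 8 called higher in TDB tumors. The 8 summed to 7.80 to 12.5 CPM there, against 3.07 to 4.58 CPM in vehicle tumors, with Cd3e at 0 in every vehicle tumor. Cd247 (log2 -0.41, edgeR adjusted p = 0.401) and Cd4 (log2 0.49, adjusted p = 0.255) were not called.

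Ifngr1 (ENSMUSG00000020009, chr10:19591949-19610229) encodes the ligand-binding chain. It measured 29.3, 30.8 and 29.3 CPM in TDB tumors and 29.8, 31.6 and 32.2 CPM in vehicle tumors. The ranges overlapped, and the log2 difference was 0.02 (SE 0.07, edgeR adjusted p = 0.88), a value whose sign turned under several alternatives. The TDB livers had 45.9, 46.8 and 46.4 CPM, against 55.8, 64.9 and 62.0 CPM in vehicle livers, so that every TDB liver was below every vehicle liver. That difference of -0.35 (SE 0.19) did not pass (edgeR adjusted p = 0.735), nor did the -0.36 found without liver TDB 3 (adjusted p = 0.547).

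Ifngr2 (ENSMUSG00000022965, chr16:91547072-91565623), the signalling chain that brings in Jak2, had 52.4, 51.6 and 47.2 CPM in TDB tumors and 51.9, 45.7 and 46.3 CPM in vehicle tumors (log2 0.16, SE 0.08, edgeR adjusted p = 0.166). The TDB livers had 47.6, 47.1 and 32.9 CPM, against 48.5, 54.5 and 45.3 CPM in vehicle livers. The low value belonged to liver TDB 3, and the log2 difference was -0.18 (SE 0.23, edgeR adjusted p = 0.855) with it and -0.02 without it. All 4 groups of Ifngr2 overlapped with a neighbour in level.

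Per kilobase of exon, the ratio of Ifngr2 to Ifngr1 within a library was 1.22 to 1.35 in TDB tumors and 1.09 to 1.32 in vehicle tumors, against 0.536 to 0.784 in TDB livers and 0.552 to 0.657 in vehicle livers. In tumors the signalling chain was the more abundant transcript, and in livers the ligand-binding chain was, with no overlap between tissues in either treatment. The ratio overlapped between TDB and vehicle in both tissues (exact two-sided permutation p = 0.3 in tumors and 0.4 in livers; adjusted over 8 ratio tests, 0.48 and 0.533). With 3 libraries against 3, an exact test cannot go below 0.1.

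The list of other class II cytokine receptors, the family to which both chains belong, held 7 genes. In TDB tumors 2 of 6 tested were called higher and 1 lower, with a median log2 difference of 0.05. Over all genes tested in tumors, 15.8% were called higher and 28.8% in either direction. Il10ra, the ligand-binding interleukin-10 receptor chain, averaged 21.2 CPM in TDB tumors and 3.79 CPM in vehicle tumors (log2 2.57, SE 0.14, edgeR adjusted p = 2.64e-06). Ifnar2, a chain of the type I interferon receptor, averaged 39.8 CPM with TDB and 25.4 CPM with vehicle (log2 0.73, SE 0.08, adjusted p = 0.000302). Il20rb fell by 0.71 (SE 0.15, adjusted p = 0.011). None of the 5 tested in liver was called by edgeR, DESeq2 or limma-voom, and 1 had an unadjusted p under 0.05.

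Jak1 (ENSMUSG00000028530, chr4:101152367-101265282), the kinase bound to Ifngr1 and to many other cytokine receptors, had 123, 127.5 and 131 CPM in TDB tumors and 122, 120.2 and 108 CPM in vehicle tumors. Each TDB tumor was above each vehicle tumor by a small margin (log2 0.21, SE 0.07), which did not pass (edgeR adjusted p = 0.0568; 0.0454 with median-of-ratios scaling). Livers with TDB had 131, 153 and 275.5 CPM, against 116, 97.3 and 145 CPM in vehicle livers. The ranges overlapped; the log2 difference was 0.69 (SE 0.33, edgeR adjusted p = 0.682), and 0.29 without liver TDB 3.

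Jak2 (ENSMUSG00000024789, chr19:29251828-29313080), the kinase bound to Ifngr2, had 65.1, 71.2 and 60.3 CPM in TDB tumors, against 27.2, 26.9 and 29.9 CPM in vehicle tumors. All TDB tumors were above all vehicle tumors, with a log2 difference of 1.31 (SE 0.08, edgeR adjusted p = 7.33e-06). In the livers, TDB samples had 18.9, 21.5 and 51.3 CPM, against 17.5, 16.6 and 23.5 CPM in vehicle livers. Only liver TDB 3 exceeded the vehicle livers, and the log2 difference of 0.72 (SE 0.42, edgeR adjusted p = 0.758) was 0.11 without it. The tumor and liver effects of TDB differed by 0.56 (SE 0.44, edgeR adjusted p = 0.746) with that library and by 1.23 (adjusted p = 0.00989) without it.

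Jak2 therefore moved relative to Jak1 in tumors. Per kilobase, the ratio of Jak2 to Jak1 was 0.662 to 0.802 in TDB tumors and 0.321 to 0.397 in vehicle tumors, against 0.202 to 0.268 in TDB livers and 0.216 to 0.245 in vehicle livers. The tumor groups did not overlap (exact two-sided permutation p = 0.1, the smallest possible, adjusted p = 0.2), and the liver groups did (p = 0.8). Among the 6 other JAKs and STATs listed, 3 were called higher in TDB tumors, where 15.8% of all genes were. The median log2 difference of the 6 was 0.21. Jak3, the kinase of the common gamma chain, averaged 22.6 CPM in TDB tumors and 13.7 CPM in vehicle tumors (log2 0.81, SE 0.08, edgeR adjusted p = 0.000107). Stat4, which acts downstream of interleukin-12, averaged 0.658 CPM with TDB and 0.0609 CPM with vehicle (log2 3.46, SE 0.55, adjusted p = 0.00187), and Tyk2 differed by 0.30 (SE 0.08, adjusted p = 0.024). None of 5 tested in liver was called by edgeR, DESeq2 or limma-voom; 1 had an unadjusted p under 0.05.

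**Figure D3:**
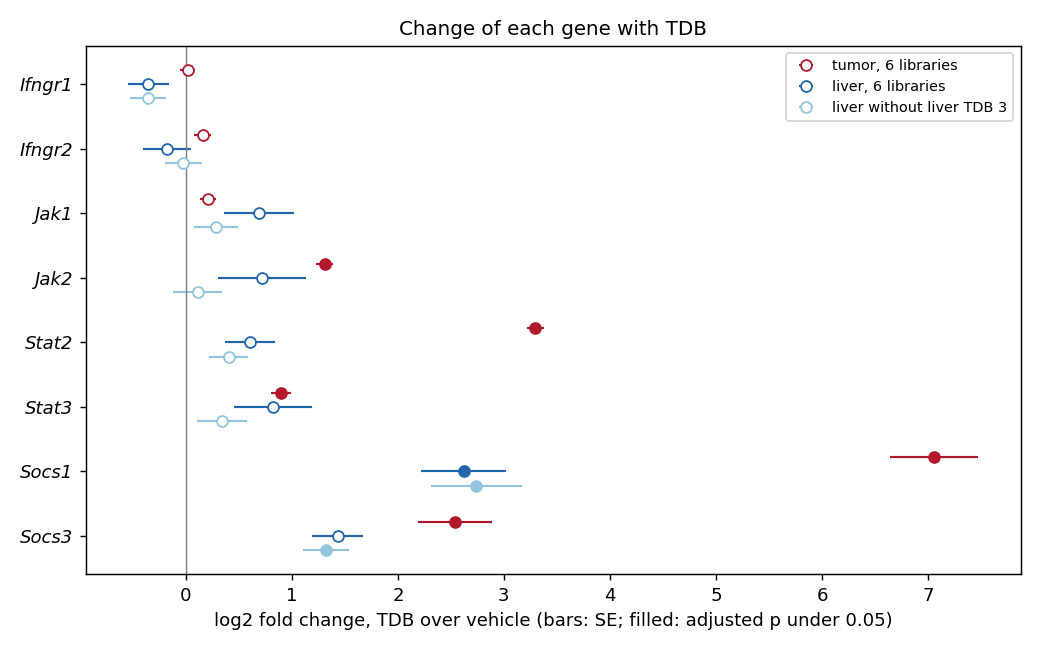
Log2 differences, TDB over vehicle, with SE bars for the 8 members other than Ifng, in tumors, in livers and in livers without liver TDB 3; filled points have an edgeR adjusted p under 0.05. Stat2 (3.30) and Socs1 (7.06) lie farthest from 0 in tumors, and the liver values of Jak1, Jak2 and Stat3 move towards 0 (to 0.29, 0.11 and 0.34) when liver TDB 3 is left out.

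Stat2 (ENSMUSG00000040033, chr10:128270559-128292849) pairs with other proteins in the transcription factor complex best known from type I interferon signalling. It had 141, 152.5 and 149 CPM in TDB tumors, against 14.7, 16.7 and 16.4 CPM in vehicle tumors. The groups were far apart, with a log2 difference of 3.30 (SE 0.08, edgeR adjusted p = 1.70e-08). Among livers, the TDB samples measured 77.4, 97.0 and 125 CPM, against 66.2, 63.4 and 73.4 CPM in vehicle livers. Every TDB liver was above every vehicle liver, though the difference of 0.61 (SE 0.24) did not pass (edgeR adjusted p = 0.527), nor did the 0.40 found without liver TDB 3 (adjusted p = 0.501).

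The effect of TDB on Stat2 differed between tissues by 2.65 (SE 0.25, edgeR adjusted p = 0.000159), one of the 2 members of 9 that passed this test, against 2.49% of all 16557 genes. The order of levels turned over with treatment. Vehicle tumors were below vehicle livers on the log2 scale (-2.085, SE 0.18, edgeR adjusted p = 5.62e-07), and TDB tumors were above TDB livers by 0.56 (SE 0.17, adjusted p = 0.011), a call lost in a fit of the 6 TDB libraries alone (adjusted p = 0.0503).

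Stat3 (ENSMUSG00000004040, chr11:100885098-100939540), the effector of the interleukin-6 family, was the most abundant member per kilobase in tumors. It had 439, 497.5 and 435 CPM in TDB tumors, against 250.5, 243 and 289 CPM in vehicle tumors. The ranges did not overlap (log2 0.89, SE 0.09, edgeR adjusted p = 0.000197); with all 12 libraries in 1 fit, where the larger liver spread is shared, the adjusted p was 0.113. Livers with TDB measured 144, 163 and 329 CPM, against 125, 91.8 and 155 CPM in vehicle livers. These overlapped, and the difference of 0.82 (SE 0.37, edgeR adjusted p = 0.644) was 0.34 without liver TDB 3.

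Per kilobase, Stat2 was 0.493 to 0.550 of Stat3 in TDB tumors and 0.0912 to 0.111 in vehicle tumors, against 0.612 to 0.959 in TDB livers and 0.761 to 1.11 in vehicle livers. The TDB and vehicle tumors were separate (exact two-sided permutation p = 0.1, the smallest possible, adjusted p = 0.2), with the TDB tumors still below every liver. The effect of TDB on Stat3 itself was not shown to differ between tissues, with a difference of 0.04 whose SE was 0.41 (edgeR adjusted p = 1), but it was 0.59 (adjusted p = 0.311) without liver TDB 3 and -0.19 by library totals.

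Cytokines and receptors of the interleukin-6 and interleukin-10 type, which signal through Stat3, were read from a list of 12. The list also held Csf3 and its receptor gene Csf3r. In TDB tumors 7 of 11 tested were called higher, against 15.8% of all genes, with a median log2 difference of 1.02. Among them was Csf3r (log2 2.27, SE 0.31, edgeR adjusted p = 0.00112), which is counted among the neutrophil genes below as well. Osmr, the oncostatin M receptor, averaged 127 CPM with TDB and 73.4 CPM with vehicle (log2 0.88, SE 0.12, edgeR adjusted p = 0.000845), and Lifr, the receptor of leukemia inhibitory factor, averaged 45.1 CPM with TDB and 31.3 CPM with vehicle (log2 0.61, SE 0.08, adjusted p = 0.000726). Il10 had 52 counts in TDB tumors and 1 in vehicle tumors, a ratio of 47.0 (exact 95% interval 8.07 to 1892). In liver none of 6 tested was called by edgeR, DESeq2 or limma-voom, with 1 at an unadjusted p under 0.05.

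Of 14 genes known to respond to Stat3, 7 of 12 tested were called higher in TDB tumors (median log2 0.78), against 15.8% of all genes. They included Pim1, a survival kinase, at 41.5 CPM with TDB and 11.5 CPM with vehicle (log2 1.94, SE 0.21, edgeR adjusted p = 0.000627), Cebpd, a transcription factor of the acute phase (log2 1.59, SE 0.31, adjusted p = 0.0129), and Hp, haptoglobin (log2 2.30, SE 0.27, adjusted p = 0.000416). Hp is also a liver gene, at a mean of 7.41 CPM in TDB tumors and 19600 CPM in TDB livers. Not every listed gene rose in tumors: Lrg1 averaged 34.9 CPM with TDB and 54.0 CPM with vehicle, and Lbp 655 CPM and 869 CPM. In tumors edgeR called none lower, while DESeq2 called 8 of 14 higher and 2 lower. In liver 1 of 14 was called, with a median log2 difference of 1.15 against 0.04 over all genes, and 9 of 14 had an unadjusted p under 0.05. That gene was Junb, a subunit of the AP-1 transcription factor, at 61.1 CPM in TDB livers and 21.2 CPM in vehicle livers (log2 1.56, SE 0.24, edgeR adjusted p = 0.0426). DESeq2 called 6 of the 14 higher in liver.

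**Figure D4:**
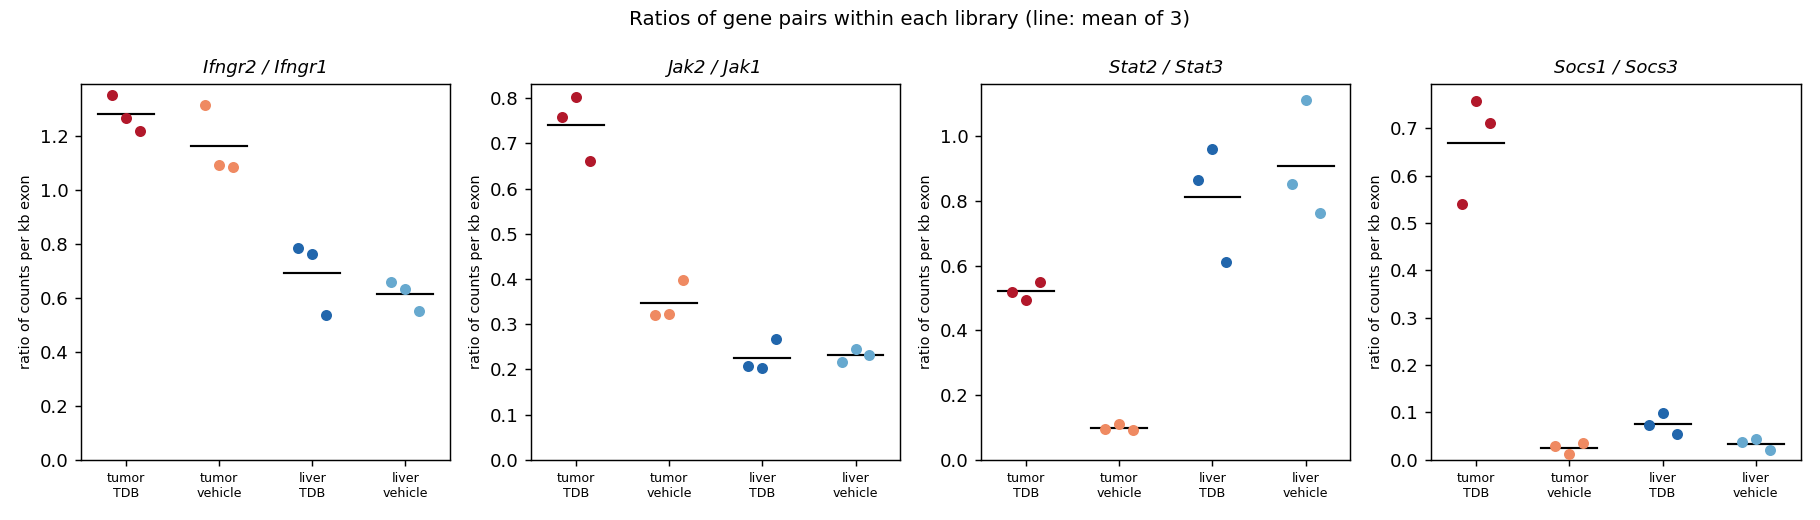
Within-library ratios of member pairs, each per kilobase of exon (Ifngr2 to Ifngr1, Jak2 to Jak1, Stat2 to Stat3, Socs1 to Socs3), by group with a line at the mean of 3. The last 3 ratios are higher in TDB than in vehicle tumors without overlap (0.662 to 0.802 against 0.321 to 0.397 for Jak2 to Jak1), whereas the receptor ratio separates tumors from livers.

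Socs1 (ENSMUSG00000038037, chr16:10782240-10785536) encodes an inhibitor that binds JAK kinases and is a classic target of interferon-gamma. It had 24.1, 38.3 and 26.2 CPM in TDB tumors, against 0.184, 0.0607 and 0.444 CPM in vehicle tumors (6, 2 and 15 counts). The log2 difference was 7.06 (SE 0.41, edgeR adjusted p = 5.19e-05), and 7.97 without tumor vehicle 3. In liver tissue, TDB samples had 3.20, 5.18 and 3.21 CPM, against 0.607, 0.859 and 0.463 CPM in vehicle livers (7, 10 and 6 counts). All TDB livers were above all vehicle livers, and the difference of 2.62 (SE 0.40) passed (edgeR adjusted p = 0.043; 2.74 and 0.0251 without liver TDB 3).

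The liver call for Socs1 was a marginal one. It was lost without liver TDB 2 (adjusted p = 0.247), liver vehicle 1 (0.294), liver vehicle 2 (0.170) or liver vehicle 3 (0.274), and by limma-voom (0.0522), with log2 differences of 2.32 to 2.89 when single libraries were left out. The effect of TDB on Socs1 was larger in tumors than in livers by 4.38 (SE 0.71, edgeR adjusted p = 0.00646), and by 5.26 without tumor vehicle 3. TDB tumors were above TDB livers by 2.93 (SE 0.37, edgeR adjusted p = 1.85e-05). Vehicle tumors were lower than vehicle livers by this scaling (-1.45, SE 0.59, adjusted p = 0.041), a call that held in 12 of 19 alternatives; it was -2.33 to -0.997 with single libraries left out and -0.13 by library totals (adjusted p = 0.837). The value of -2.33 was found without tumor vehicle 3.

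Socs3 (ENSMUSG00000053113, chr11:117966079-117970047), the inhibitor that binds the interleukin-6 signal transducer, had 44.4, 50.3 and 36.6 CPM in TDB tumors, against 6.17, 5.25 and 12.5 CPM in vehicle tumors. The ranges were separate, with a log2 difference of 2.54 (SE 0.35, edgeR adjusted p = 0.00354). TDB livers measured 43.5, 52.5 and 58.4 CPM, against 16.1, 19.8 and 23.1 CPM in vehicle livers. Those were separate too (log2 1.43, SE 0.24), with an edgeR adjusted p of 0.0626 that became 0.0306 without liver TDB 3. The effects of TDB in the tissues differed by 1.07 (SE 0.41, edgeR adjusted p = 0.278), and by 1.55 (adjusted p = 0.0277) without tumor vehicle 3, the highest vehicle tumor.

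The proportion of the inhibitors differed between tissues among TDB libraries and overlapped among vehicle libraries. Per kilobase, Socs1 was 0.539 to 0.757 of Socs3 in TDB tumors and 0.0115 to 0.0353 in vehicle tumors, against 0.0546 to 0.0981 in TDB livers and 0.0200 to 0.0432 in vehicle livers. TDB was above vehicle in every library of each tissue (exact two-sided permutation p = 0.1 in each, the smallest possible, adjusted p = 0.2), and TDB tumors were far above TDB livers.

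Of 15 other SOCS proteins and JAK-STAT inhibitors, 6 were called higher and 1 lower in TDB tumors, with a median log2 difference of 0.13. Over all genes tested in tumors, 15.8% were called higher and 28.8% in either direction. Usp18, which blocks type I interferon receptor signalling, had the smallest adjusted p (log2 3.93, SE 0.29, edgeR adjusted p = 0.000175), with Cish (0.88, SE 0.10, adjusted p = 0.000275) and the phosphatase gene Ptpn6 (0.71, SE 0.10, adjusted p = 0.0011). In liver edgeR called none of 15, with 3 at an unadjusted p under 0.05, while DESeq2 called 1 higher and 1 lower and limma-voom 1 higher. Without liver TDB 3, edgeR also called 1 higher and 1 lower, Usp18 (2.81, adjusted p = 0.0194) and Socs2 (-1.43, adjusted p = 0.0291), both named after their values were seen. Socs2, an inhibitor of growth hormone signalling, had 33.4, 25.5 and 19.1 CPM in TDB livers and 87.1, 63.8 and 92.3 CPM in vehicle livers, the reverse of Socs1 and Socs3.

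Genes that respond to interferon-gamma were read from a list of 13 that is known to be high in these data, so its direction is not independent support. In TDB tumors 13 of 13 were called higher, with a median log2 difference of 5.998 (5.94 with Ido1, at 0 counts in vehicle tumors, set to its bound). In livers 10 of 11 tested were called higher, with a median of 3.29. Irf1, the transcription factor first in the response, averaged 582 CPM in TDB tumors and 23.9 CPM in vehicle tumors (log2 4.69, SE 0.10, edgeR adjusted p = 8.52e-09), against 249 CPM in TDB livers and 73.1 CPM in vehicle livers. Igtp, a GTPase of cell-autonomous defence, averaged 2204 CPM in TDB tumors and 12.9 CPM in vehicle tumors (log2 7.501, SE 0.18, adjusted p = 1.70e-08), and Irgm1, another, differed by 6.10 (SE 0.15, adjusted p = 1.98e-08).

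In livers Igtp averaged 1961 CPM with TDB and 107 CPM with vehicle (log2 4.24, SE 0.23, edgeR adjusted p = 0.000982), and Gbp2, a guanylate-binding protein, 606 CPM with TDB and 14.1 CPM with vehicle (log2 5.47, SE 0.37, adjusted p = 0.00126). These livers had 1, 10 and 1 Ifng counts. The response genes did not share 1 order over these livers. Igtp had 1928, 1769 and 2188 CPM in liver TDB 1, 2 and 3, and Cxcl9, a chemokine for T cells, had 359, 1441 and 522 CPM, highest where Ifng was. Cd274, the ligand PD-L1, had 29.97, 48.8 and 110 CPM, and Ciita, the regulator of class II genes, 8.81, 15.2 and 23.5 CPM, both highest in liver TDB 3. These last 3 genes were named after their values were seen. Of 6 type I and type III interferon ligands listed, none had enough counts for edgeR's test; Ifnb1 had 9, 16 and 5 counts in TDB tumors, 1, 0 and 3 in vehicle tumors and 0 in all livers.

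**Figure D5:**
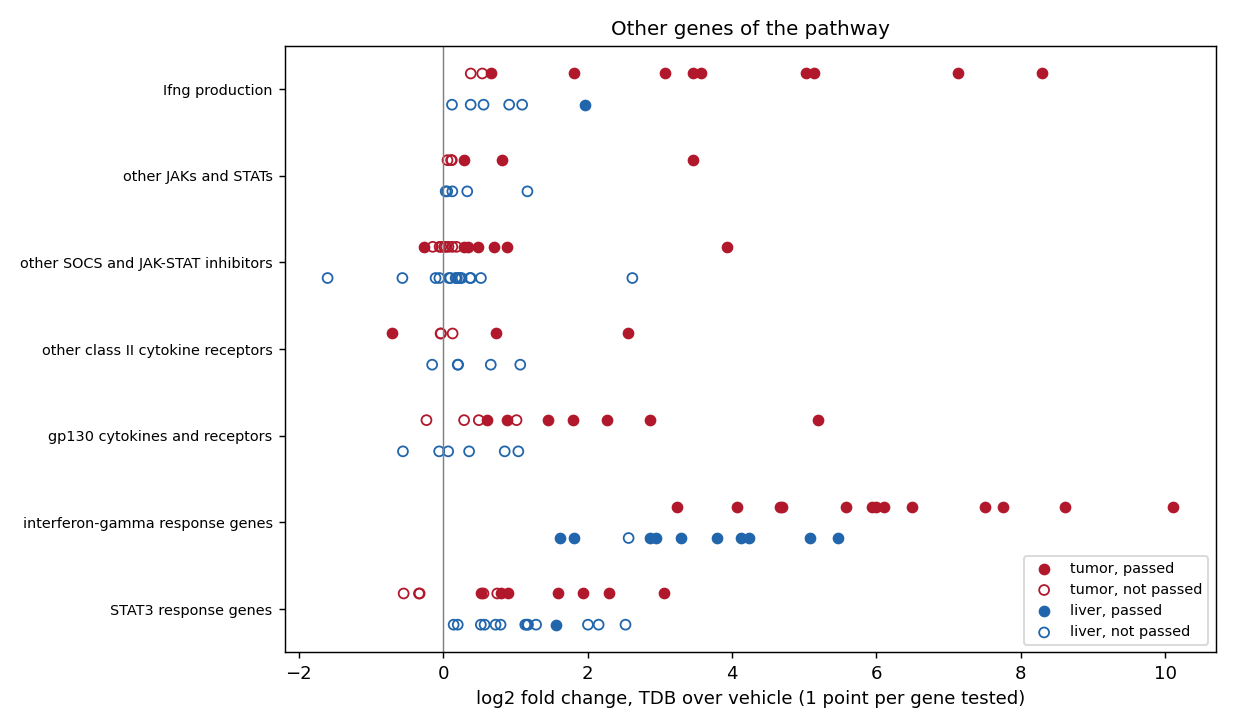
Log2 differences, TDB over vehicle, of the listed genes of each pathway list (members left out) in tumors and livers; each point is a gene and filled points have an edgeR adjusted p under 0.05. The interferon-gamma response genes lie highest in both tissues (medians 5.998 in tumors and 3.29 in livers), and the other JAKs and STATs, class II receptors and inhibitors mostly near 0; points of genes with 0 to 3 vehicle counts, such as Ido1, Il2ra and Tbx21, are fitted values that depend on the prior count.

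Cell type markers moved with treatment in both tissues. Of 4 neutrophil genes, 3 were called higher, and their sum was 24.4 to 47.9 CPM in TDB tumors against 3.13 to 7.70 CPM in vehicle tumors; Csf3r, in that list, is a receptor gene whose product also signals through Stat3. Of 6 macrophage and monocyte genes, 3 were called higher, with sums of 179 to 265 CPM in TDB tumors and 113 to 174 CPM in vehicle tumors. Over all genes tested in tumors, 15.8% were called higher. In livers the neutrophil sums were 27.9 to 48.8 CPM with TDB and 19.5 to 37.8 CPM with vehicle, and the macrophage sums 419.5 to 473 CPM with TDB and 359 to 455 CPM with vehicle, overlapping in both. The 8 T cell markers, however, summed to 29.7 to 36.9 CPM in TDB livers and 13.8 to 16.6 CPM in vehicle livers, with Cd8a, a subunit of the CD8 coreceptor, called higher (log2 2.98, SE 0.44, edgeR adjusted p = 0.0426). The 4 B cell genes summed to 6.10 to 9.21 CPM in TDB livers and 9.41 to 10.3 CPM in vehicle livers. The hepatocyte sums were separate as given above, though none of the 6 hepatocyte genes was called. The part of these cells in the changes of Jak2, Stat2, Stat3, Socs1 and Socs3 was not tested.

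Across the 4 groups, the levels of Ifng and Stat3 set TDB tumors above all other groups. The other groups overlapped their neighbours in level, but without liver TDB 3 vehicle tumors (243 to 289 CPM of Stat3) lay above TDB livers (144 to 163 CPM). Stat2 and Socs1 each fell into 4 separate ranges, in the order TDB tumors, TDB livers, vehicle livers and vehicle tumors, high to low. Socs3 had TDB livers and TDB tumors overlapping at the top, then vehicle livers, then vehicle tumors. The orders of Socs1 and Socs3 across tissues depend on the TMM scaling. By library totals, the log2 difference of vehicle tumors from vehicle livers was -0.13 for Socs1 and 0.023 for Socs3. TDB tumors were then above TDB livers by 0.89 for Socs3. Jak2 was highest in TDB tumors, with TDB livers and vehicle tumors overlapping and vehicle livers lowest. Without liver TDB 3, the TDB livers (18.9 to 21.5 CPM of Jak2) lay below vehicle tumors (26.9 to 29.9 CPM) and overlapped vehicle livers (16.6 to 23.5 CPM). Ifngr1 ran the other way, with vehicle livers above TDB livers and both above the tumors, which overlapped.

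Against vehicle livers, vehicle tumors were called different for 5 members, where 75.6% of all genes were: Ifngr1 (-0.96), Stat2 (-2.085), Socs1 (-1.45) and Socs3 (-1.30) lower and Stat3 (1.07) higher. Against TDB livers, TDB tumors were called different for 6 members, where 72.1% of all genes were: Ifng, Jak2 (1.10, and 1.71 without liver TDB 3), Stat2, Stat3 (1.11) and Socs1 higher and Ifngr1 (-0.64) lower. By library totals alone the median over all genes moves to 1.43 in the vehicle comparison and 1.19 in the TDB comparison. With TMM these medians were 0.11 and 0.06. By totals the sign of Ifngr1 turns in both comparisons (0.37 and 0.49). In the vehicle comparison that of Socs3 turns as well (0.023), and the difference of Socs1 is -0.13.

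Per kilobase, TDB tumors had 48.0 ± 3.65 CPM of Stat3, 24.9 ± 0.967 of Stat2, 17.6 ± 0.523 of Jak1, 15.1 ± 2.38 of Socs3, 13.4 ± 0.744 of Ifngr2, 13.0 ± 1.08 of Jak2, 10.5 ± 0.311 of Ifngr1, 10.15 ± 2.64 of Socs1 and 3.76 ± 0.605 of Ifng (SD, n = 3). Vehicle tumors had 27.4 ± 2.59 of Stat3 and 16.1 ± 1.03 of Jak1, against 2.76 ± 1.36 of Socs3, 2.69 ± 0.182 of Stat2 and 0.0790 ± 0.0673 of Socs1 on the same scale. The SD relative to the mean was widest for Socs1 in both tumor groups, leaving aside Ifng at 0 in vehicle. Stat2 therefore stood below both receptor chains per kilobase in vehicle tumors and above them in TDB tumors. Over the TDB livers, liver TDB 3 was 2.54 times the mean of the other 2 for Jak2, 2.15 times for Stat3, 1.94 times for Jak1 and 1.44 times for Stat2, whose exonic lengths are 5030, 9527, 7227 and 5926 bases. The shorter Ifngr2 (3767 bases), Socs1 (2908 bases) and Ifngr1 (2847 bases) were at 0.694, 0.766 and 1.00 times, and Socs3 (2891 bases) at 1.22 times. The part of transcript length in these values was not tested.

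The genes whose levels most resembled those of Ifng over the 12 libraries, among 16541 compared by Pearson correlation of log2(CPM + 0.5), were Klrb1b (0.987), an NK cell receptor, Ctla4 (0.977), a checkpoint receptor of activated T cells, and Tnf (0.974). Klrb1b averaged 3.33 CPM in TDB tumors and 0.0303 CPM in vehicle tumors, against 0.245 CPM in TDB livers and 0.138 CPM in vehicle livers. Socs1 was most like H2-Q6 (0.995), H2-Q4 (0.9895) and Sp110 (0.986); the H2-Q genes are near-identical class I copies whose reads counting can split. Socs3 was most like Lcp2 (0.976), Serpina3f (0.975) and Serpina3g (0.9745), also members of a multigene family. The points share 4 groups and their libraries, so these values describe the pattern of group means and nothing more.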

How the data were processed

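The authors' deposited tables hold whole-number counts per gene, with no normalization, and FPKM values per gene for the same 12 libraries. Per the submitters' processing notes GSNAP, limma and the build GRCm38 were used; the roles, versions, counter, annotation and strand setting were not given in the sources used here. Reads of overlapping antisense genes therefore cannot be told apart. Of 52636 identifiers, 52489 matched GENCODE M21, which gave symbols and exonic lengths.

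The counts were tested with edgeR 4.0.16 (TMM, filterByExpr with a minimum count of 10 and total of 15, quasi-likelihood test, Benjamini-Hochberg over all genes tested) in R 4.3.3. Each tissue was fitted on its 6 libraries, and comparisons between tissues on all 12. The test was run on simulated data with 200 changed genes and a single spread for all genes of a comparison. No simulated library stood apart as liver TDB 3 did, so that run does not cover such a library. Alternatives were other scalings, no filter, DESeq2 1.42.0, limma 3.58.1 (voom, and trend on log2(FPKM + 1)), shared fits, each library left out and a replicate block. Depth was 18460159 to 29396324 counts; intervals and the floor of 3 counts cover counting error only. No pair of libraries agreed within sampling noise (lowest chi-square per degree of freedom 12.5).

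The members and lists were chosen with earlier results of these data known. Named genes are all members, the 3 with the smallest adjusted p in tumors and the 2 in livers of each list among those called, and the 3 most like Ifng, Socs1 and Socs3.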

Additional observations from a re-analysis of the deposited data

Results flagged for a closer look

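By the tissue-by-treatment term of edgeR's quasi-likelihood test, the effect of TDB differed between tumor and liver for 2.49% of all 16557 genes. Of the 63 members, list genes, markers and most alike genes examined, many were chosen by small p, by likeness or after their values were seen. Their share is therefore no result in itself, and the effect differed for 21 of them. Among the members these were Stat2, with a difference of 2.65 on the log2 scale (SE 0.25, adjusted p = 0.000159), and Socs1, with 4.38 (SE 0.71, adjusted p = 0.00646). Both were larger in tumors. Among the listed genes chosen by the naming rule the differences were 6.03 for Tbx21, which had 1 count in vehicle tumors, 1.87 for Il10ra, 2.84 for Irf1, 3.22 for Igtp, 2.77 for Irgm1 and 2.24 for Gbp2, all larger in tumors with adjusted p of at most 0.0129. Without liver TDB 3 they were 5.94, 2.09, 3.08, 3.38, 3.11 and 2.39 in the same order. T and NK cell markers differed as well, by 7.60 for Cd3e, at 0 counts in vehicle tumors, 4.01 for Cd3d, 4.23 for Ncr1 and 4.45 for Klrb1c, and the part of these cells in the other differences was not tested. Of the response genes named after their values were seen, Cxcl9 differed by 4.98 and Ciita by 2.97. Socs2 differed by 1.41 (adjusted p = 0.0352), with effects of -0.14 in tumors and -1.60 in livers. Of the genes most like Ifng, Socs1 and Socs3, the differences were 5.74 for Klrb1b, 2.52 for Tnf, 2.39 for H2-Q6, 1.88 for H2-Q4, 1.92 for Sp110 and 4.82 for Serpina3f. Fitted values of genes with 0 to 3 vehicle counts depend on the prior count. The median over all genes was -0.12. Vehicle tumors lay below vehicle livers for Stat2 and Socs1 on TMM scaling, and the part of that starting level in the differences was not tested.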

How the results depend on the processing

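The count of members called kept within 1.5 times of its reported value in every alternative for the tumor comparison (6 when any single library was left out), the difference between tissues (2 to 3), vehicle tumors against vehicle livers (4 to 7) and TDB tumors against TDB livers (6 to 7). In livers the 1 call was 2 without a filter, by DESeq2, in the 12-library fit and with a replicate block, 0 by limma-voom and by limma-trend on FPKM, and 0 to 2 when single libraries were left out. The cause was not tested. The labels do not say whether equal numbers mark a shared animal or batch. Deviations of same-numbered libraries correlated at 0.0285 to 0.115 between TDB tumors and TDB livers and at -0.0569 to 0.104 between vehicle tumors and vehicle livers, where an animal could be shared, and at -0.0922 to 0.597 within liver and 0.0262 to 0.306 within tumor, where only a batch could be. Pairs with different numbers ran from -0.59 to 0.515 within liver and from -0.269 to 0.236 within tumor, so these values do not settle what the numbers mark. The block gave 291 higher and 59 lower genes in liver (70 and 3 without it), Socs3 among them (adjusted p = 0.00446), and ended the call for Stat2 between TDB tissues (0.0615). Over all genes the liver counts were 271 and 49 by DESeq2, 282 and 41 in the 12-library fit, 133 and 12 without a filter, 35 and 2 by limma-trend, and 14 to 151 higher with a library left out; in tumors the 12-library fit gave 1068 and 627. The scaling by library totals was chosen after seeing the data. It splits the tissue comparisons into 10862 higher and 2815 lower (vehicle; 6540 and 5980 with TMM) and 10372 and 2868 (TDB; 6058 and 5882), and moves the median of all genes to 0.15 in livers, -0.15 in tumors and -0.31 in the difference between tissues. Signs turned for Ifngr1 in tumors (-0.055 with upper quartile scaling, -0.026 on FPKM, -0.068 in the 12-library fit, -0.12 by library totals, -0.012 to 0.046 with a library left out) and for the difference between tissues of Stat3 (-0.19 by library totals, -0.18 to 0.59 with a library left out). Between vehicle tissues they turned for Ifngr1 (0.37) and Socs3 (0.023) by library totals, for Ifngr2 (0.056 with upper quartile scaling, 0.026 without a filter, 1.29 by library totals, -0.10 to 0.034 with a library left out) and for Jak1 (0.067, 0.033, 1.29, and -0.16 to 0.13). Between TDB tissues they turned by library totals for Ifngr1 (0.49), Jak1 (0.55) and Socs3 (0.89). A few counts per library limit Ifng in liver and Socs1 in vehicle tissue.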
